A study of Mus musculus with 38 samples.

Results

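Chromatin accessibility of the mouse cortical collecting duct was compared between wild-type C57BL/6 mice infused for 5 days with dDAVP (3 libraries) and wild-type C57BL/6 mice infused for 5 days with saline (3 libraries). These are 6 of the 38 libraries of a study of long-lasting antidiuretic hormone excess without low plasma sodium, and all 6 were prepared from microdissected ducts by the assay for transposase-accessible chromatin with sequencing (ATAC-seq). Each transposition took 3 ducts of 300 to 600 µm, and mitochondrial DNA was depleted with CRISPR/Cas9. RNA-seq of ducts from the same treatment, 4 dDAVP and 4 saline libraries, served as an independent readout. The labels call the controls of both assays vehicle or saline, and the deposited peak table calls its control group NT. Nothing in the labels says that the libraries of a group came from separate mice.

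dDAVP (desmopressin) is a vasopressin analogue that acts on the V2 receptor of collecting duct principal cells. The receptor raises cAMP, which activates protein kinase A, drives the water channel aquaporin-2 to the apical membrane and, through CREB-family factors bound at cAMP response elements, transcription of genes such as Aqp2. The duct also holds intercalated cells, which transport acid and base. ATAC-seq marks DNA that transposase can reach, which is mostly promoters and enhancers. Because whole ducts were used, a larger share of cells of a type and more accessible chromatin per cell cannot be told apart.

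All peaks of the deposited comparison were taken. For each peak the table gives the log2 of the mean normalised signal of 3 dDAVP libraries and of 3 saline libraries, and no value for any library. The results therefore have no standard deviation and no test, and the read depth is unknown. The table holds 270806 peaks; 9477 were at the floor of 0 with dDAVP alone, 22468 with saline alone and 3159 with both. Peaks above the floor in both groups whose mean log2 signal was at least 4 were analysed, which left 83615 peaks (30.9%) next to 17912 named genes. They held 88.0% of the summed dDAVP signal and 91.0% of the summed saline signal.

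The deposited signal was lower overall with dDAVP, and the gap depended on how strong a peak was. Summed over all peaks, the linear signal with dDAVP was 0.710 times that with saline. Of the analysed peaks, 74548 (89.2%) had the lower value with dDAVP. The median difference, dDAVP minus saline, was 0.12 on the log2 scale in peaks of mean signal 1.0 to 1.5, -0.38 in peaks of 4.0 to 4.5 and -0.62 in peaks of 8.0 to 8.5. How the authors scaled the libraries is not given in the sources used here, so this shared offset cannot be told apart from a change in the whole genome. Each peak's difference was therefore centred on the median of peaks of like strength, in bins of 0.5 log2 units. A centred difference of 0 means that a peak moved as its bin did.

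**Figure D1:**
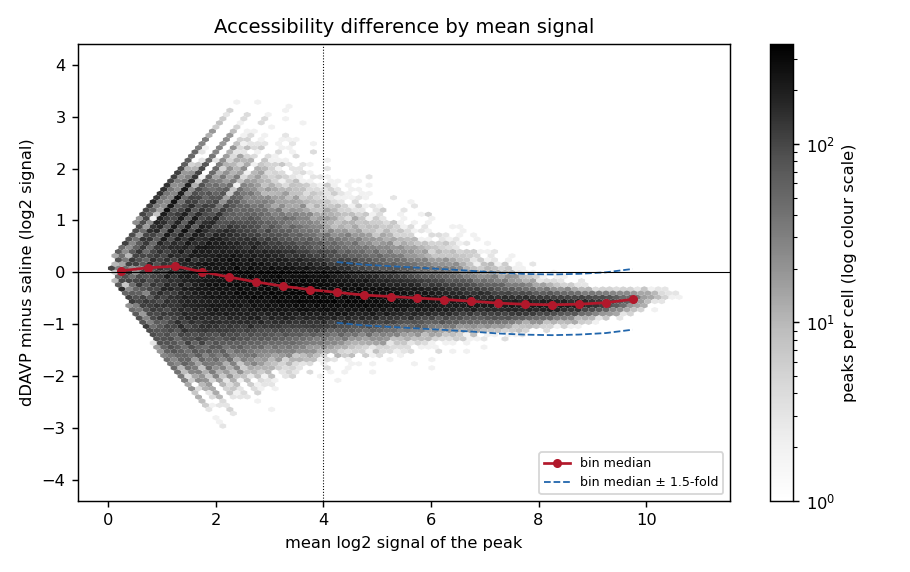
Difference between dDAVP and saline (log2) against mean log2 signal, for peaks above the floor in both groups, with the bin medians. The medians lie above 0 among the weakest peaks and near -0.6 among the strongest, which is the trend that was subtracted.

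A peak is called gained where its centred difference reached 1.5-fold (0.585 on the log2 scale) above its bin and lost where it was as far below. The calls are sizes, not tests. There were 5842 gained peaks, 6.99% of those analysed, and 2969 lost peaks, 3.55%, so gained calls outnumbered lost ones by 1.97 to 1. At 2-fold there were 1508 gained and 274 lost peaks. The median centred difference was 0.79 in gained and -0.71 in lost peaks; the closest peaks on each side of the upper limit had 0.5850 and 0.5849. Without the centring, 1406 peaks were 1.5-fold higher and 33798 were 1.5-fold lower, so the share of calls in the upward direction was 3.99% in place of 66.3%. The direction of the balance thus holds relative to peaks of like strength only.

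Most calls fell on weak peaks, where the spread is wide. The standard deviation of the centred difference was 0.49 among peaks of mean signal 4.0 to 4.5 and 0.10 among peaks of 9.5 to 10. Of 31486 peaks with a mean signal of 6 or more, 670 were gained and 179 were lost. The table holds no counts, so the counting error of a weak peak could not be given.

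Gained chromatin lay away from genes' starts, and promoters seldom gained. Among 25763 intergenic peaks, 9.30% were gained and 3.66% lost. The 39978 intronic peaks gave 7.70% gained and 3.50% lost. Among 10308 promoter peaks the order turned, with 1.20% gained and 3.24% lost. Exonic peaks resembled promoters, with 2.41% gained and 4.35% lost. Introns held 52.7% of the gained peaks, intergenic regions 41.0% and promoters 2.12%; of the lost peaks, introns held 47.1%, intergenic regions 31.7% and promoters 11.2%.

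Promoter peaks are stronger than others, but the contrast was also there at matched strength. Among peaks of mean signal 6 to 7, 4.99% of intergenic, 4.34% of intronic and 0.676% of promoter peaks were gained. In the same band 0.957% of intergenic, 1.04% of intronic and 1.15% of promoter peaks were lost. Among weak peaks of 4 to 5, 13.2% of promoter peaks and 6.14% of intronic peaks were lost, and the promoters' median was -0.19. None of the 3716 strongest promoters, of 8 or more, was gained or lost. Promoters make up much of the peaks of that strength and so weigh on the bin medians, and few peaks of any class were called there: 9 gained and 1 lost.

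Distance to the nearest RefSeq gene start ordered the gained peaks in the same way. Within 0.5 kb of a start, 1.42% of peaks were gained and 2.05% lost; between 0.5 and 2 kb the shares were 2.65% and 7.24%. From there the gained share was 5.88% at 2 to 10 kb, 8.62% at 10 to 50 kb, 11.2% at 50 to 200 kb and 12.0% beyond 200 kb. The lost share over the same bands was 4.36%, 3.21%, 2.73% and 2.92%. In peaks of mean signal 6 to 7 the gained share was 1.52% within 0.5 kb and 6.96% at 50 to 200 kb. The median distance was 27.1 kb for gained, 8.50 kb for lost and 12.0 kb for the other peaks. The table of starts is not complete, so some distances are too long.

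**Figure D2:**
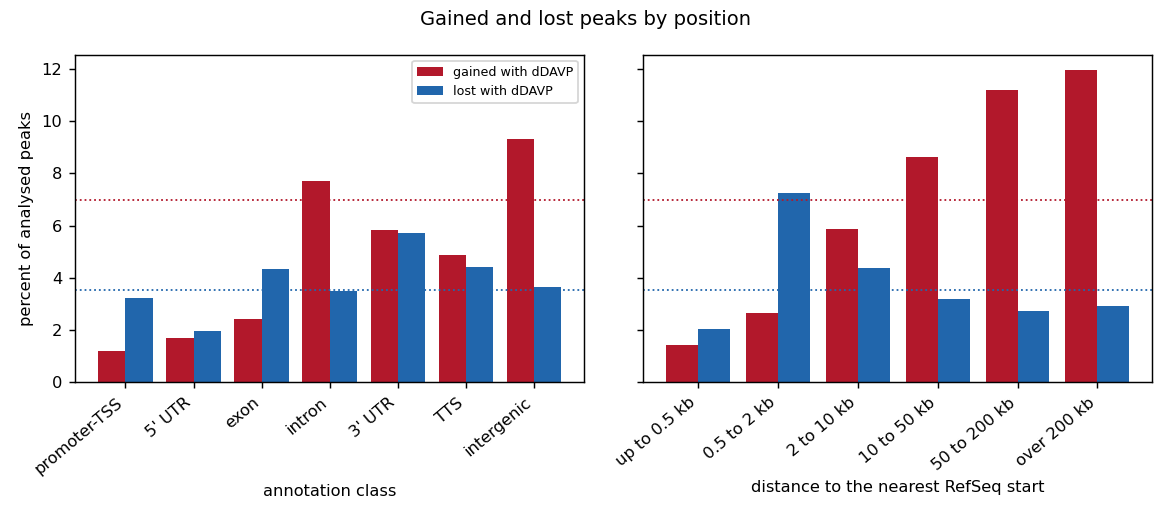
Share of analysed peaks (%) gained and lost with dDAVP, by annotation class and by distance to the nearest RefSeq start. The gained share is 1.20% in promoters and 9.30% between genes, and reaches 12.0% beyond 200 kb.

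Gained peaks were wide and neighboured each other. At a mean signal of 6 to 7 their median width was 921.5 bp, against 578 bp for lost peaks and 673 bp for the others. Where a gained peak had another analysed peak downstream within 20 kb, that neighbour was gained as well in 717 of 3446 cases (20.8%), while 5.45% of all such neighbours were gained. For lost peaks the share was 173 of 2465 (7.02%), against 4.00% of all neighbours. Width also moved with the calls themselves: when the bins were split by width, 4570 (78.2%) of the gained peaks and 74.9% of the lost peaks were called again.

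The promoters that the results turn on are shown for orientation, from RefSeq on the GRCm38.p6 build, which has the coordinates of mm10. Each window runs from 250 bases before to 50 after a gene's start. Capitals mark, on either strand, the full cAMP response element TGACGTCA, the AP-1 site TGANTCA, the GATA site AGATAA, the TEAD site GGAATG, the SP1 site GGGCGG and the NFY site CCAAT. Of all RefSeq promoters, 1.79% hold the full cAMP response element, 7.81% the AP-1 site, 11.2% the GATA site, 14.7% the TEAD site, 35.7% the SP1 site and 37.4% the NFY site. Car15 and Grem1 have a gained peak over the start, Aqp2 is the classical vasopressin target, and Tmem52b, Zfp367 and Ubb have a lost promoter peak.
Car15 promoter, chr16:17838137-17838436, minus strand: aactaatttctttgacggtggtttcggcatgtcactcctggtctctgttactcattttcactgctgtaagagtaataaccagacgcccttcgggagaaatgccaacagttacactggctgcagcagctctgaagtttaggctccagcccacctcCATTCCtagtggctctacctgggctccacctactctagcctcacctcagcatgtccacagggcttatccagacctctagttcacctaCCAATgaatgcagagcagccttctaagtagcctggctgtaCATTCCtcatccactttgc
Grem1 promoter, chr2:113758599-113758898, minus strand: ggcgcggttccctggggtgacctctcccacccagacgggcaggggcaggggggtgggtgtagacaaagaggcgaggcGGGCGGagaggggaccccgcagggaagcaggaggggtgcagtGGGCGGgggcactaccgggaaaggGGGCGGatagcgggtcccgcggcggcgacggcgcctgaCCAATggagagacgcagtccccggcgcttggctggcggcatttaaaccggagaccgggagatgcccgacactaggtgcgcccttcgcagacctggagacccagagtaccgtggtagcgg
Aqp2 promoter, chr15:99578806-99579105, plus strand: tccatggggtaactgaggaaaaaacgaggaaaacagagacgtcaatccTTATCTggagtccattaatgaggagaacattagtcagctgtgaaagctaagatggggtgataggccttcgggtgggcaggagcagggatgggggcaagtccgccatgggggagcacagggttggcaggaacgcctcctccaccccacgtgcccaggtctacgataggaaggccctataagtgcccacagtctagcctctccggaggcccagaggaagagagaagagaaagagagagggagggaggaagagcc
Tmem52b promoter, chr6:129512307-129512606, plus strand: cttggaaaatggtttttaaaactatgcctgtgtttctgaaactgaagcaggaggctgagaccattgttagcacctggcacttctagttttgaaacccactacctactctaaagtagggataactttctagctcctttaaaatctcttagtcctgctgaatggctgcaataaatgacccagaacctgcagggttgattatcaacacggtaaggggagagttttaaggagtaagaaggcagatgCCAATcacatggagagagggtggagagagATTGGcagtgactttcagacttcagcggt
Zfp367 promoter, chr13:64152324-64152623, minus strand: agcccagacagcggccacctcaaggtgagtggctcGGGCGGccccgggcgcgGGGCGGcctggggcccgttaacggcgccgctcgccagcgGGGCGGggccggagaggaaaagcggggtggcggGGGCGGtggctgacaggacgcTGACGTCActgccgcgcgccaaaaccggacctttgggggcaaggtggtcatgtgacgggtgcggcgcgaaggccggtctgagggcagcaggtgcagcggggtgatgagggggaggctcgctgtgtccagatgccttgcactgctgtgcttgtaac
Ubb promoter, chr11:62551481-62551780, plus strand: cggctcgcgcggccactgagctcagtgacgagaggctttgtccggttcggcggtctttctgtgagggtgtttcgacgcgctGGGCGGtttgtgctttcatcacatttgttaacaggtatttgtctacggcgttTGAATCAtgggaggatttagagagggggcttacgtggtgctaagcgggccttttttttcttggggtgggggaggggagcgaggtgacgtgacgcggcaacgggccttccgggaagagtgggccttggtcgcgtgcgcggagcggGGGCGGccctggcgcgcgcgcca
Of these windows, the Zfp367 promoter holds a full cAMP response element and the Aqp2 window, which ends 50 bases into the gene, holds a GATA site. The Zfp367 and Ubb windows are the more internal of the gene's 2 starts.

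Over all promoters, the gained ones were weaker and had a lower GC content than those that were neither gained nor lost. The 7230 RefSeq windows that lay inside an analysed promoter peak, off chromosome 18, had a median GC content of 55.3% in gained peaks (53 windows), 62.5% in lost peaks (28 windows) and 64.3% in the others. The windows lie in 5432 peaks, so a peak with several starts is counted more than once here and in the shares below. The median mean signal of the same windows' peaks was 5.18 in gained, 5.39 in lost and 8.25 in the others, so the GC contents are not compared at matched strength. In windows of 45 to 55% GC, 21 of 930 were gained and 2 lost; in windows of at least 65% GC, 13 of 3432 were gained and 8 lost. The TEAD site stood in 32.1% of gained, 14.3% of lost and 10.5% of all 7230 windows. The AP-1 site stood in 15.1% of gained, 3.57% of lost and 4.27% of all 7230 windows. The GC-rich SP1 site stood in 49.1% of gained, 75.0% of lost and 72.7% of all 7230 windows. The full cAMP response element stood in 1 gained and 1 lost window. The part of GC content and of peak strength in these shares was not tested.

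The gained peaks furthest above their bin, among peaks of mean signal of at least 6, lay in introns or between genes. An intronic peak of Spock1, which encodes a secreted proteoglycan, had a log2 signal of 6.59 with dDAVP and 5.21 with saline (chr13:57853026-57854251, centred difference 1.91, a 3.75-fold difference). In Ttc39b, an intronic peak had 7.53 with dDAVP and 6.26 with saline (chr4:83256472-83257522, centred 1.86). An intergenic peak nearest Megf9 had 7.42 with dDAVP and 6.18 with saline (centred 1.80). These peaks were higher with dDAVP both relative to their bin and as deposited, as were 5836 of all 5842 gained peaks. Mad1l1, a spindle checkpoint gene, had an intronic peak of 7.52 with dDAVP and 6.33 with saline (centred 1.78). A peak next to Cryaa, which encodes a lens crystallin, had 7.48 with dDAVP and 6.33 with saline (centred 1.74). The others were in Zfp648 (1.74), Camta1 (1.65), Gm13944 (1.58, inside Zfp385b), 2610028E06Rik (1.55) and Rbms3 (1.53). Cryaa carried 7 gained peaks in all and Mad1l1 carried 6, where 6.99% of all analysed peaks were gained. Both genes were named for an extreme peak, and the total of their peaks is not given here.

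Among the lost peaks far below their bin were the ends of the immediate early genes Nr4a1 and Fos. In the 3' untranslated region of Nr4a1, an immediate early nuclear receptor, the peak had a log2 signal of 4.89 with dDAVP and 6.70 with saline (centred -1.29). At the transcript end of Fos, an AP-1 subunit, the peak had 4.93 with dDAVP and 6.65 with saline (centred -1.19). Both were lower with dDAVP as deposited too. The 5' untranslated region of Adra2c, an adrenergic receptor, had 4.82 with dDAVP and 6.67 with saline (centred -1.32). An intronic peak of Slc52a3, a riboflavin transporter, had 4.90 with dDAVP and 6.74 with saline (centred -1.31). Others were in Ppp1r37 (-1.23) and Tesc (-1.03) and nearest C1ql4 (-1.03), Eln (-1.02) and Prok2 (-0.99).

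**Figure D3:**
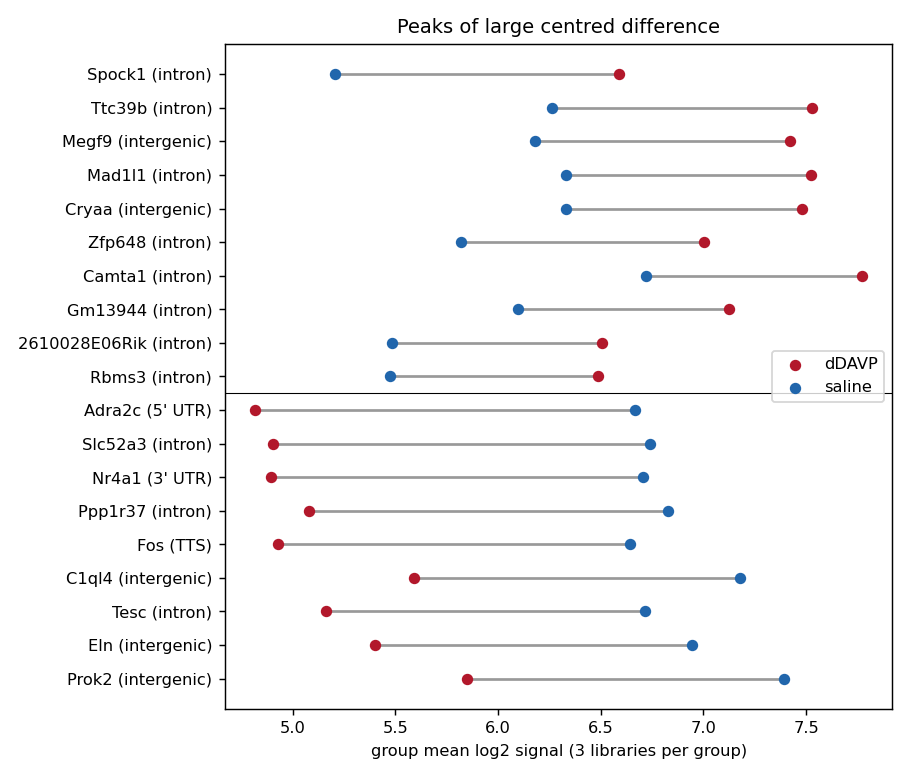
Deposited log2 signal with dDAVP and with saline at 10 gained and 9 lost peaks far above and far below their bin, among peaks of mean signal of at least 6. The gained peaks reach a log2 signal of 7.77 with dDAVP at Camta1, and the lost peaks reach 4.82 with dDAVP at Adra2c.

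Some peaks were listed at the floor in a single group. The strongest that were at 0 with saline had a log2 signal with dDAVP of 3.66 next to Socs5, 3.51 in Gga3, 3.43 in LOC108167416, 3.42 next to Mir6401 and 3.37 next to Cachd1. The strongest that were at 0 with dDAVP had a signal with saline of 3.33 next to Dsg1c, 3.22 next to Snord123, 3.17 next to Lyplal1, 3.08 next to Cdh26 and 3.05 in Sin3b. All are weak, and no fold can be given for them.

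At the Aqp2 locus, which encodes the vasopressin-regulated water channel, the promoter and a downstream element differed. The promoter peak (chr15:99578305-99579420) had a log2 signal of 8.72 with dDAVP and 9.06 with saline, a centred difference of 0.28, and was neither gained nor lost. A broad peak of 2208 bp between Aqp2 and Aqp5 (chr15:99585782-99587989) had 9.89 with dDAVP and 8.94 with saline, a centred difference of 1.53 or 2.88-fold. The small peaks on both sides of it were gained too, at 0.74 and 0.79. A weak peak in the first intron of Aqp2 was lost, with 3.99 with dDAVP and 5.20 with saline (centred -0.77). Next door, the promoter of Aqp5, another water channel, had 6.27 with dDAVP and 7.11 with saline (centred -0.29). Of 27 analysed peaks within 60 kb of the Aqp2 start, 4 were gained and 2 lost.

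Car15, a membrane-bound carbonic anhydrase gene, had gained peaks at its start and on its downstream side. The peak that covers its start, shown above as a promoter sequence but annotated as intronic, had a log2 signal of 9.08 with dDAVP and 8.69 with saline (chr16:17837337-17838583, centred 1.00). About 7.45 kb away, a peak at chr16:17830241-17831240 had 9.18 with dDAVP and 8.83 with saline (centred 0.92). The separate small peak annotated as its promoter, with a mean signal of 1.93, lay below the minimum. Of 23 analysed peaks within 60 kb of the start, 10 were gained and 1 was lost. The lost peak, at -0.99, lay upstream, where none was gained. The gained peaks reached 1.71, at a weak peak with 5.10 with dDAVP and 3.83 with saline.

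**Figure D4:**
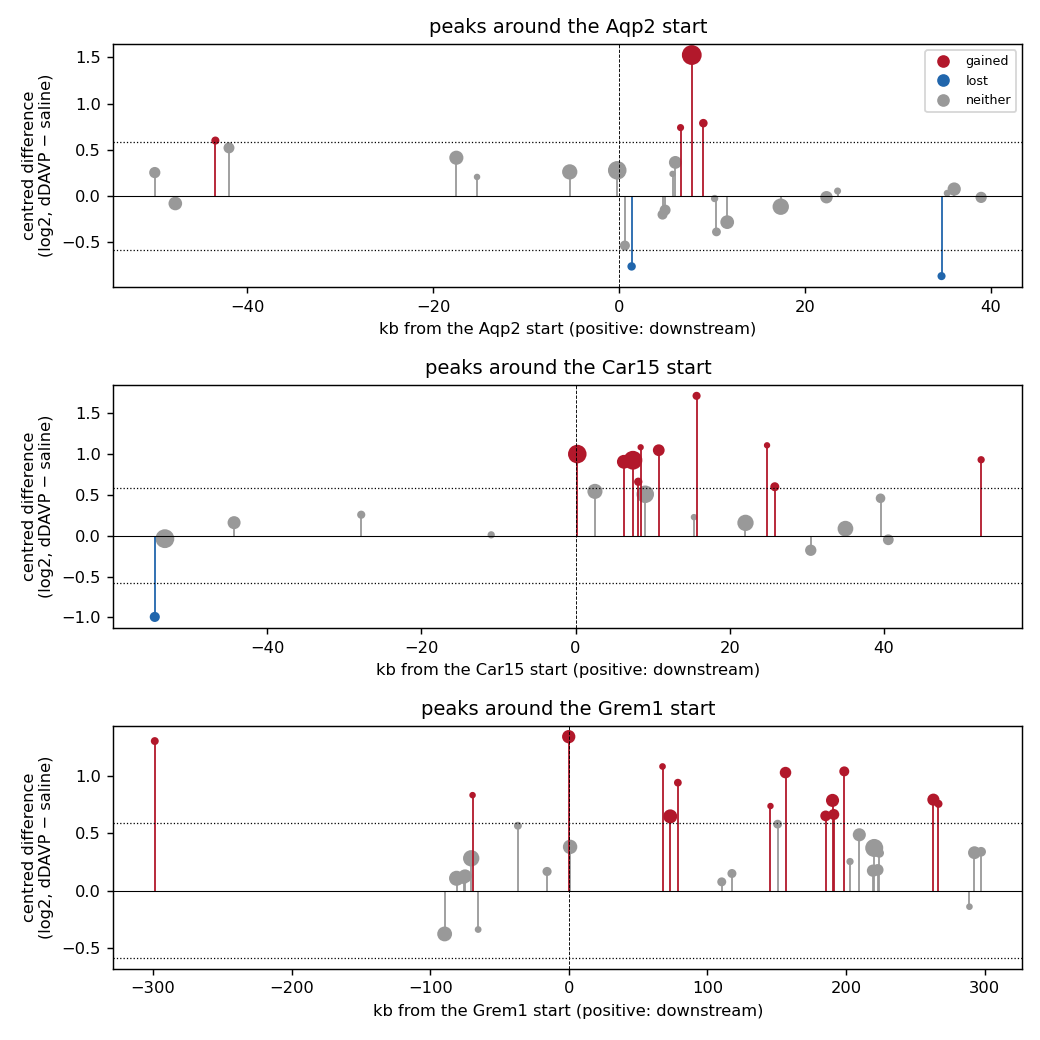
Centred difference (log2) of every analysed peak around the starts of Aqp2, Car15 and Grem1, against distance from the start in kb (positive is downstream); larger points are stronger peaks and dotted lines mark 1.5-fold. Gained peaks make up 4 of 27 at Aqp2, 10 of 23 at Car15 and 14 of 35 at Grem1.

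Runs of gained peaks spread over whole gene neighbourhoods. Of 5541 genes nearest to at least 5 analysed peaks, 323 had 3 or more gained and no lost peak, 64 had 3 or more lost and no gained peak, and 548 had both. Of all analysed peaks, 6.99% were gained and 3.55% lost, so more genes with gained peaks follow in part from the number of calls. At Bcat1, which encodes a branched-chain aminotransferase, 9 of 11 peaks were gained, at 0.78 to 1.46, in introns and in the 5' untranslated region; the intronic peak at chr6:145035121-145035874 had 7.14 with dDAVP and 6.38 with saline. Grem1, which encodes a secreted antagonist of bone morphogenetic proteins, lay near such a run. The Grem1 promoter peak had 6.91 with dDAVP and 6.12 with saline (centred 1.34). A stronger peak in the Grem1 intron, with a mean signal of 7.04, was not gained (centred 0.38). Within 300 kb of the Grem1 start 14 of 35 peaks were gained and none was lost. Of these 14, 11 are assigned to the neighbouring formin gene Fmn1, which had 36 peaks. The gained peak nearest to the start, apart from the promoter, lay 67.6 kb away.

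Further genes with many gained peaks were Rbms3 (12 of 48), Chn2 (10 of 26), Dab1 (8 of 27), Galnt18 (8 of 24), Fam49b (8 of 14) and Dmrtb1 (8 of 13, most inside Glis1). In Chn2, which encodes a Rac-directed chimaerin, the strongest had 7.59 with dDAVP and 7.06 with saline (centred 1.12). Slc9a3, the sodium-hydrogen exchanger of the proximal tubule, had 7 gained peaks, among them its promoter, with 4.95 with dDAVP and 3.98 with saline (centred 1.41). The total of Slc9a3 peaks is not given here. Pisd-ps3 had 29 of 32 peaks gained, but these lie on an unplaced contig of repeated sequence, where reads cannot be placed with certainty.

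Lost peaks gathered around fewer genes, but there were also fewer of them, 3.55% of analysed peaks against 6.99% gained. The genes were ranked by count, which favours genes with many peaks. Rara, the retinoic acid receptor alpha gene, had 9 of 29 peaks lost and none gained; the peak at chr11:98969510-98970084 had 6.09 with dDAVP and 7.27 with saline (centred -0.63). Pde10a encodes a phosphodiesterase that breaks down cyclic nucleotides, and 7 of its 36 peaks were lost and 1 was gained. Its intronic peak at chr17:8802223-8802484 had 3.90 with dDAVP and 5.50 with saline (centred -1.16). Col27a1 had 6 of 16 peaks lost, 4 of them close together with its promoter peak among them, which had 4.72 with dDAVP and 6.18 with saline. Egr1 had 5 of 12 lost, and Prkch, a protein kinase C gene, 5 of 27. Tbc1d1 (5 of 57), Spata13 (5 of 62), 1700001C19Rik (6 of 29), Gm10532 (5 of 25) and Gm5069 (5 of 30) completed the 10 genes with the most lost peaks net of gained ones.

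Few promoters of known genes passed 1.5-fold, and those named here were chosen after their values were seen. Beside Grem1, the gained ones included the keratin gene Krt19, which had 6.19 with dDAVP and 5.59 with saline (centred 1.09). Slc27a2, a fatty acid transport gene of the proximal tubule, had 6.01 with dDAVP and 5.31 with saline (centred 1.20). Itgb8 (0.96), Dysf (1.00) and the thick limb tight junction gene Cldn16 (0.62) were also gained. Among the lost ones, the motor gene Myo1c had 6.73 with dDAVP and 7.94 with saline (centred -0.61). Zfp367 had 6.39 with dDAVP and 7.62 with saline (centred -0.64), at the window shown above with the full cAMP response element; the peak at the other Zfp367 start had 8.70 with dDAVP and 9.18 with saline (centred 0.13). Ubb, a polyubiquitin gene, had 5.74 with dDAVP and 6.90 with saline (centred -0.64). The stronger peak at the other Ubb start had 7.78 with dDAVP and 8.55 with saline (centred -0.14). Edn1, which encodes endothelin-1, an inhibitor of sodium and water uptake in the duct, was at -0.82 in a peak 715 bp from its start. The stronger peak over the Edn1 start was at -0.33 and was not lost. Pmvk (-0.76), Sync (-0.73), Cish (-0.74) and Kcnn1 (-1.22) were lost as well. The lost Cish peak lay 855 bp from its start, and the stronger peak over that start was at 0.05. The peak at the other Kcnn1 start was at -0.35.

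Of a short list of promoters of the vasopressin pathway and of the duct's own regulators, those analysed stayed inside the limits. None of the list's 17 promoters above the minimum, from 17 genes, was gained or lost. Their centred differences ran between -0.19 at the water channel gene Aqp3 and 0.28 at Aqp2. Car15 was also on the list, but its peak annotated as promoter lay below the minimum. The peak over the Car15 start, annotated as intronic, was gained (centred 1.00). Of the longer gene lists, the promoters of Mecom and Stx4a were lost. Avpr2, the V2 receptor gene, had a log2 signal of 7.44 with dDAVP and 7.95 with saline (centred 0.11). The epithelial sodium channel genes Scnn1a (-0.003), Scnn1b (-0.12) and Scnn1g (0.05) lay near their bins, as did the transcription factor genes Gata3 (0.01), Elf5 (-0.04) and Tfap2b (0.17). Crem, a CREB-family gene, was at -0.18. No promoter peak was listed for the intercalated cell genes Slc26a4, Slc4a1 and Foxi1.

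Around the genes of the cAMP and CREB pathways, gained and lost peaks were counted beside the shares of all analysed peaks, 6.99% gained and 3.55% lost. Of 283 peaks at 27 cAMP and protein kinase A genes, 14 (4.95%) were gained and 17 (6.01%) lost; Pde10a gave 7 of the losses and Akap13, an anchoring protein gene, 4 of the gains. Of 208 peaks at 21 CREB-family and CREB target genes, 11 (5.29%) were gained and 15 (7.21%) lost; the kinase gene Sik1, a CREB target, had 4 gained and 1 lost. AP-1 and immediate early genes had 8 gained (3.52%) and 17 lost (7.49%) of 227, with 5 losses at Egr1 and 4 at Fos. Their medians were -0.05, -0.01 and -0.13, against a median of 0 by construction in every bin. Genes of AQP2 trafficking had 7 gained (3.37%) and 8 lost (3.85%) of 208, with the promoter of Stx4a, a syntaxin of the apical fusion machinery, lost at -0.77. The sodium channel and mineralocorticoid list had 10 gained (3.13%) and 13 lost (4.08%) of 319, with 4 of the losses at Scnn1g.

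Other lists differed in their balance. Tonicity response genes had 7 gained and 1 lost of 68, at the urea transporter gene Slc14a2 (3 gained) and the osmolyte transporter genes Slc5a3 and Slc6a12 (2 gained each). Tubule injury genes had 7 gained and 1 lost of 57, with 4 gained at Krt19 and 3 at Spp1, which encodes osteopontin. Their gained shares, 10.3% and 12.3%, compare with 6.99% of all analysed peaks, and their lost shares, 1.47% and 1.75%, with 3.55%. Collecting duct transcription factors had 15 gained and 15 lost of 508, Wnt and beta-catenin genes 12 and 10 of 255, and clock genes 4 and 8 of 129. Ribosomal protein genes had 2 and 2 of 70, and oxidative phosphorylation genes 3 and 1 of 56.

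For each listed gene, the strongest peak annotated as a promoter was set beside the same over all genes. Such a peak can be weak beside the gene's other peaks. The highest mean signal of any peak was 8.59 at Krt8, 9.25 at Mecom, 9.08 at Hsd11b2 and 8.39 at Pde4b. The promoter peaks of Hsd11b2 and Pde4b had mean signals of 5.38 and 5.92. Across 8748 such promoters of all genes the median was -0.04, and 41.6% lay above 0. Mecom, a collecting duct transcription factor gene, had a log2 signal of 5.47 with dDAVP and 6.61 with saline (centred -0.61) and was lost. The promoter peak of Krt8, a keratin gene of simple epithelia, had 3.93 with dDAVP and 5.03 with saline (centred -0.66) and was lost as well. Of the 11 peaks assigned to Krt8, 1 was lost and none was gained. The cAMP phosphodiesterase gene Pde4b, at -0.52, the Wnt receptor gene Fzd1, at -0.57, and the clock-controlled gene Hlf, at -0.55, stayed just inside the limit. Nearer to 0 were the vesicle traffic gene Rab5a (-0.50), the immediate early genes Myc (-0.37) and Maff (-0.36), the homeobox genes Hoxb7 (-0.36) and Lhx1 (-0.27), and Hsd11b2 (-0.33), whose enzyme shields the mineralocorticoid receptor from glucocorticoid. The clock gene Per2, also a CREB target, was at 0.14.

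Markers of other cell types were measured beside these values. Principal cell markers, 10 genes, had 3 gained (1.99%) and 10 lost (6.62%) of 151 peaks, and intercalated cell markers, 9 genes, 2 gained (2.22%) and 5 lost (5.56%) of 90, beside 6.99% gained and 3.55% lost of all analysed peaks. Markers of other segments and cells had few peaks: 7 for the proximal tubule (2 gained, 28.6%), 14 for thick limb and distal convoluted tubule (3 gained, 21.4%), 16 for endothelium (5 gained, 31.2%) and 8 for podocytes (1 gained, 12.5%), with none lost. Immune cell markers had 11 peaks and fibroblast and pericyte markers 9, each with 1 lost (9.09% and 11.1%) and none gained. The median centred difference was -0.05 over the peaks of principal cell markers, -0.12 for intercalated cells, 0.28 for the proximal tubule, 0.04 for thick limb and distal convoluted tubule, 0.21 for podocytes, 0.22 for endothelium, -0.22 for immune cells and -0.10 for fibroblasts and pericytes. Summed linear signals are not centred, and the lists differ in peak strength, from a median mean signal of 4.62 in fibroblast and pericyte markers to 5.63 in principal cell markers, so their ratios carry the offset that depends on strength. The summed signal was 11551 with dDAVP and 17503 with saline for principal cell markers (log2 ratio -0.60), 674 with dDAVP and 781 with saline for endothelial markers (-0.21) and 351 with dDAVP and 406 with saline for proximal tubule markers (-0.21), beside a log2 ratio of -0.54 over all analysed peaks. Of the proximal tubule markers, Slc34a1, Slc5a12, Slc22a6 and Hnf4a had no analysed peak. Pvalb, Nphs1, Emcn, Cd3e, Itgam, Col3a1 and Rgs5 had none either. At their promoters, the endothelial receptor gene Tek had 5.40 with dDAVP and 4.66 with saline (centred 1.20), and Umod, which encodes uromodulin of the thick limb, had 6.20 with dDAVP and 6.38 with saline (centred 0.34). The promoter of Lrp2, which encodes the proximal tubule receptor megalin, was not gained and had 5.44 with dDAVP and 6.21 with saline (centred -0.27). The podocyte gene Podxl had 5.98 with dDAVP and 6.71 with saline (centred -0.21), and the endothelial receptor genes Flt1 and Kdr were at 0.14 and 0.18. The promoter of Slc12a1, the thick limb sodium-potassium-chloride cotransporter gene, lay below the minimum, with 4.28 with dDAVP and 1.57 with saline. The part of other cells in the gained peaks was not tested.

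RNA from the same treatment gave a second readout of the genes near these peaks. Of 5035 genes in the deposited table of TPM, transcript abundance scaled to a fixed sum in each library, 28 were higher with dDAVP (0.556%) and 7 lower (0.139%) by limma at a Benjamini-Hochberg adjusted p under 0.05; 553 passed an unadjusted 0.05. This count depended on single libraries: it was 16 without dDAVP replicate 1, 23 without dDAVP replicate 2, 7 without dDAVP replicate 3, 19 without dDAVP replicate 4, 18 without saline replicate 1 and 17 without saline replicate 2. The 7 genes called in all 8 of the fits that left out a library were Abhd3, Aqp2, Car15, Cdk18, Crem, Id2 and Niban1. The listed genes summed to 895155 to 925759 TPM in a library, and the lowest value was 10.01. The RNA read depth is unknown.

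The accessible regions near RNA-higher genes were gained in part, and those near RNA-lower genes were not gained. The 25 higher genes with an analysed peak had 226 peaks, of which 26 (11.5%) were gained and 8 (3.54%) lost. Over all analysed peaks the shares were 6.99% and 3.55%. Dab1 alone gave 8 of the 26 gained peaks, and its RNA call held in 2 of 8 fits that each left out a library. Among higher genes called in all 8 fits, Car15 and Cdk18 had 1 gained peak each. Aqp2 and Crem had 1 lost peak each and none gained, and Abhd3 had neither. All 26 gained peaks were among the 188 peaks annotated as intronic or intergenic (13.8%), and none was among the 18 annotated as promoters. The intronic peak of Car15, however, covers the gene's start. The 7 lower genes had 87 peaks, with none gained and 7 (8.05%) lost, and 4 of their 12 promoter peaks were lost. The median of a gene's peaks was above 0 in 20 of the 25 higher genes and in none of the 7 lower genes. The same gene count was not made for other genes, and some genes have few peaks, such as Abhd3 with 2. Taken peak by peak, 61.5% lay above 0 near higher genes and 27.6% near lower genes. That share was 45.3% near genes with RNA listed but not called and 52.2% near genes not listed. Genes listed in the RNA table but not called had 4.39% gained and 3.82% lost, and genes outside it 8.18% gained and 3.42% lost.

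Among the RNA-higher genes, Car15 RNA was 6693, 7104, 9362 and 7643 TPM in dDAVP ducts, against 1863, 1471, 1430 and 1450 TPM in saline ducts. The groups did not overlap (log2 fold change 2.31 ± 0.16 (SE), limma adjusted p = 4.8e-05). Aqp2 RNA averaged 60870 ± 8577 TPM with dDAVP and 20170 ± 1573 TPM with saline (SD, n = 4 each), a log2 fold change of 1.59 (limma adjusted p = 0.0028). Car15 had a gained peak at its start. The gained element downstream of Aqp2 is nearest to Aqp5 and is counted there; of the 9 peaks assigned to Aqp2 itself none was gained and 1 was lost. Crem RNA was 355.7 ± 40.6 TPM with dDAVP and 61.3 ± 34.4 TPM with saline (log2 2.65, limma adjusted p = 0.0028), yet of its 4 peaks none was gained and 1 was lost. Cdk18, a cyclin-dependent kinase gene, had 166 ± 26.9 TPM with dDAVP and 32.9 ± 11.8 TPM with saline (log2 2.35, limma adjusted p = 0.00345) and 1 gained peak of 19, at 1.57.

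Several higher genes carried more than 1 gained peak, but their RNA calls were lost when particular libraries were left out. Ache, acetylcholinesterase, had 271.3 ± 36.4 TPM with dDAVP and 77.6 ± 33.3 TPM with saline (limma adjusted p = 0.011, and 0.0596 without dDAVP replicate 3), with 2 of 6 peaks gained. Dab1, a reelin-pathway adaptor gene, had 111 ± 14.1 TPM with dDAVP and 30.1 ± 18.4 TPM with saline (limma adjusted p = 0.031), with 8 of 27 peaks gained. Fads1, a fatty acid desaturase gene, had 100.1 ± 7.95 TPM with dDAVP and 35.3 ± 11.3 TPM with saline (limma adjusted p = 0.0241), with 3 of 4 peaks gained. The Dab1 and Fads1 calls each held in 2 of 8 such fits, those without saline replicates 3 or 4. Against this pattern, Aqp3 RNA was higher, at 7732 ± 614 TPM with dDAVP and 3875 ± 966 TPM with saline (limma adjusted p = 0.0241, held in 2 of 8 fits), while 3 of its 16 peaks were lost and none was gained.

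Of the RNA-lower genes, Id2, whose product binds helix-loop-helix factors and keeps them from DNA, had 168.1 ± 33.9 TPM with dDAVP and 569.4 ± 117 TPM with saline (log2 -1.75, limma adjusted p = 0.0032), and 3 of its 22 peaks were lost. Tmem52b, a membrane protein gene, had 181 ± 47.6 TPM with dDAVP and 568.5 ± 213.6 TPM with saline (log2 -1.61, limma adjusted p = 0.0238, held in 3 of 8 fits). Among its 10 peaks 3 were lost, and the promoter window printed above lies in part of this group, in a peak with 5.33 with dDAVP and 6.49 with saline (centred -0.64).

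**Figure D5:**
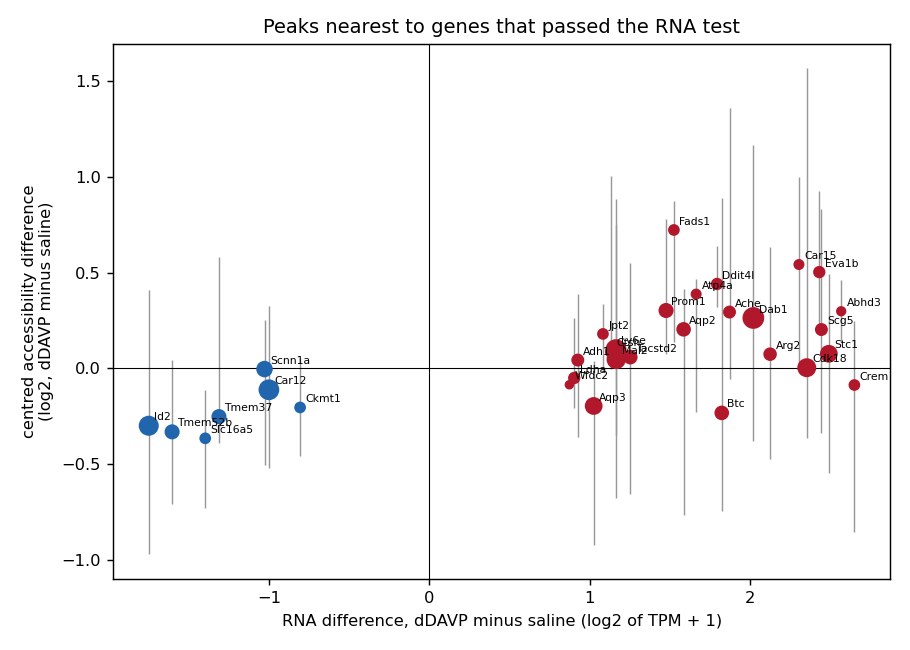
RNA log2 fold change, dDAVP over saline, against the median centred difference of each gene's analysed peaks, for genes higher (red) or lower (blue) in RNA; vertical lines span a gene's lowest to highest peak and larger points have more peaks. In 20 of 25 higher genes and in none of 7 lower genes the median lies above 0. The same gene count was not made for other genes.

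Some of the lost peaks lay at the ends of highly expressed genes. Among 377 peaks at the transcript end or 3' untranslated region of genes with at least 100 TPM, 32 (8.49%) were lost and 6 (1.59%) gained. At such peaks of genes listed under 100 TPM, 23 of 463 (4.97%) were lost and 21 (4.54%) gained. At such peaks of genes outside the RNA table, 63 of 1572 (4.01%) were lost and 99 (6.30%) gained. Of all analysed peaks, 3.55% were lost and 6.99% gained. The low gained share was not particular to transcript ends: intronic peaks of genes with at least 100 TPM had 3.53% gained and 4.60% lost. The transcript end of the actin gene Actb had a log2 signal of 6.60 with dDAVP and 8.12 with saline (centred -0.91), and that of Aqp3 had 5.06 with dDAVP and 6.48 with saline (centred -0.92). Fos had 4 lost peaks at its end, the lowest at -1.81, and Egr1 had 5, the lowest at -1.93.

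RNA of these immediate early genes varied strongly within a group. Fos RNA was 151.86, 1715.24, 96.75 and 60.03 TPM in dDAVP ducts, against 643.34, 2001.43, 937.59 and 2076.31 TPM in saline ducts. The groups overlapped because dDAVP replicate 2 was high (limma adjusted p = 0.26). Without that library the log2 fold change was -3.70 and the limma adjusted p was 0.00496; over the 8 fits that each left out a library, the adjusted p ran to 0.575. Egr1, likewise induced fast, had 99.03, 1832.99, 62.41 and 36.39 TPM in dDAVP ducts, against 343.61, 2128.46, 492.06 and 1269.4 TPM in saline ducts, with the same library high (limma adjusted p = 0.398 with it and 0.019 without it, and up to 0.668 over the 8 fits). The RNA and ATAC libraries are not matched in the labels, so whether the ATAC libraries vary in this way was not tested.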

How the data were processed

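ATAC-seq of 3 dDAVP and 3 saline libraries and RNA-seq of 4 dDAVP and 4 saline libraries were used. Per the submitters' processing notes, the study used STAR, RSEM, DiffBind, MACS2, Bowtie2, cutadapt 3.4, Picard, SAMtools, deepTools and bedtools, with mm10; their settings and the scaling of the ATAC libraries are not given in the sources used here. The deposited ATAC values are log2 mean signals per group, together with each peak's width in bp, annotation class and nearest gene, as the authors wrote them; the control column, named NT, was taken as the saline group. The authors' fold, p and false discovery values were not used. The deposited RNA values are TPM, and per the file header only genes over a minimum of 10 TPM are listed.

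Peak differences were centred on the median of their 0.5 log2 bin, and calls need a mean signal of at least 4. RNA was tested with limma 3.58.1 in R 4.3.3 (empirical Bayes with trend, log2 of TPM + 1, Benjamini-Hochberg adjustment over 5035 genes, no replicate block); fold changes on this scale understate those of low genes. The labels do not say whether RNA replicates that share a number are paired. The correlations of their deviations were 0.19, 0.23, 0.087 and -0.149, too few and too mixed to settle it. The title of dDAVP RNA replicate 4 carries both the numbers 4 and 3, and the duct number was used. The RNA p-values measure the spread between these libraries, which may be technical. Both computations were tested on simulated data. Chromosome 18 and peaks with no start on their sequence were left out of the distances, and chromosome 18 of the motif windows. Names followed a rule: the 10 peaks of mean signal of at least 6 furthest above and below their bin, the 5 strongest floor peaks each way, fixed promoters, the 10 genes with the most gained and the most lost peaks, each net of the other kind, up to 4 promoters per list, and genes called in RNA. The members, the 20 gene lists and the 13 motifs were chosen with earlier results of these data known. Some results that follow from the rule are not reported here.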

Additional observations from a re-analysis of the deposited data

Results flagged for a closer look

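Dixon's test was run on the 86 groups of 4 RNA libraries behind the genes named, and 11 groups held a library apart from the others of its group; chance gives about 1 in 20 groups. Of these, 4 were immediate early genes in dDAVP replicate 2. Its value was 1715.24 TPM for Fos, 1832.99 TPM for Egr1, 233.04 TPM for Jun and 1147.23 TPM for Nr4a1, each above the other 3 dDAVP libraries. In saline ducts, Nr4a1 was 1231.8 TPM in replicate 2, against 11.27, 12.78 and 153.62 TPM in the other replicates.

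Among genes called in RNA, dDAVP replicate 1 was low for Atp4a at 573.62 TPM, and dDAVP replicate 3 was low for Cdk18 at 125.96 TPM. In saline ducts, replicate 1 was high for Car15 at 1862.84 TPM and replicate 4 was high for Lcn2 at 193.15 TPM. Saline replicate 3 was low for Ckmt1 at 1169.76 TPM and for Eva1b at 19.02 TPM.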

How the results depend on the processing

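The count of gained peaks was 5842 and of lost peaks 2969. Without centring they were 1406 and 33798, at 2-fold 1508 and 274, with a minimum signal of 3 they were 12499 and 8225, and with a minimum of 5 they were 2285 and 883. Narrower or wider bins, bins split by width, medians without promoters, floor peaks kept and, chosen after seeing the data, unplaced contigs left out gave 5056 to 5907 gained and 2930 to 3142 lost peaks. Keeping the floor peaks could change neither count, because none of them reached the minimum signal of 4. The promoter median of -0.05 was -0.62 without centring. Of 384 called peaks that were recomputed, 244 were called without centring and 309 with bins split by width, and none changed direction under the centring alternatives. Without centring a lost peak could not change direction, because the bin medians at a signal of 4 or more were below 0. A gained peak could do so only if its centred difference was smaller than the size of its bin median. The absence of reversals there therefore says little. Splitting the bins by GC content was not run, because it needs a genome.

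The 35 genes called in RNA became 8 with a replicate block, and 34 to 38 under other pseudocounts, a higher TPM minimum or median-of-ratios scaling. Leaving out each library gave 7 to 47 called genes. The log2 fold change of Nr4a1, -0.23, ran from -1.61 to 1.12 over the fits that each left out a library, and no called gene changed direction.

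Group means without libraries, counts or depth limit what can be said of any single peak: a size past 1.5-fold in a weak peak was not set against replicate error.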
